A study of Mus musculus with 15 samples.

Results

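The genes described here encode 10 mediators through which mesenchymal stem or stromal cells (MSCs) are known to act on immune and epithelial cells: Tnfaip6, Hgf, Il1rn, Ido1, Lif, Vegfa, Stc1, Cxcl12, Lgals1 and Nos2. They are listed by name, with no threshold on measured values, and all 10 were found among the 55421 genes of the deposited count table. All 10 also had enough counts to be tested, among 19562 genes that did. RNA-seq libraries were made from the lungs of 15 female wild type C57BL/6 mice, 5 in each of 3 groups. All mice received 10 µg of house dust mite (HDM) extract intranasally, on 5 days a week for 2 weeks, to model allergic asthma, and lungs were taken on day 15. The short-term group also received MSCs from adipose tissue, intranasally, on day 13, the long-term group on day 6, and the HDM group received no cells. No source used here names the donor of the cells. Counts of a mouse gene in whole lung cannot tell given MSCs from host cells, so every level below is that of the lung as a whole.

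MSCs are stromal cells that release soluble factors when they meet inflammatory cytokines, and those factors are thought to carry much of their action on immune cells. The mediators work by different routes: some block a cytokine or bind matrix, some act as growth factors on epithelium and vessels, some guide leukocytes, and some are enzymes that use up an amino acid. In the lung most of them are also made by resident cells, such as macrophages, fibroblasts, endothelium and alveolar epithelium.

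Total counts were 17182599 to 32119067 in short-term, 31762964 to 41762167 in long-term and 29635897 to 44201637 in HDM libraries. Short-term replicate 3 stood apart: it had the fewest counts, yet counts for 43174 genes, against 26542 to 29154 genes in the other 14 libraries. The 7 thymocyte markers summed to 3012 CPM (counts scaled to the library total) in it, and to no more than 36.7 CPM in any of its 4 group mates. It was the lowest of all 15 libraries for 8 of the 10 mediators, as it was for 28.0% of all tested genes, so the short-term differences from HDM are given with and without it. Leaving it out moved no mediator's long-term difference from HDM by more than 0.0059 on the log2 scale. Lung markers were present in every library: the 8 markers of alveolar type 1 and type 2 epithelium summed to 8247 to 16775 CPM in short-term, 14982 to 18944 CPM in long-term and 13296 to 18430 CPM in HDM libraries. The 10 MSC surface markers, which resident stromal and endothelial cells share, summed to 1796 to 2213 CPM in short-term, 2178 to 2386 CPM in long-term and 2041 to 2371 CPM in HDM libraries, and these ranges overlap. Among them Thy1 was 404.4 CPM in short-term replicate 3, the library high in thymocyte markers, and 25.3 to 33.0 CPM in its group mates. Without that library the short-term sums were 2001 to 2213 CPM. The largest part of these sums is Itgb1, at 632.5 to 816.1 CPM in short-term, 763.9 to 843.2 CPM in long-term and 715.1 to 820.0 CPM in HDM libraries. None of the 10 markers differed between short-term and HDM lungs at an adjusted p under 0.05 (edgeR) with all libraries. Without short-term replicate 3, 1 of the 10 was lower, where 3.36% of all genes were.

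Upstream sequence was looked up in RefSeq for mouse build GRCm38.p6, where 6 of the 10 genes (Cxcl12, Lif, Tnfaip6, Il1rn, Hgf and Vegfa) matched an entry. The 250 bases before the start are printed for Cxcl12, at chr6:117168285-117168534 on the plus strand, since it was the only mediator past the test. They are printed for Lif, at chr11:4257318-4257567 on the plus strand, since its short-term values lay below all others. Tnfaip6, at chr2:52037863-52038112 on the plus strand, is printed because it is the member whose window holds a STAT motif, shown in capitals.
Cxcl12: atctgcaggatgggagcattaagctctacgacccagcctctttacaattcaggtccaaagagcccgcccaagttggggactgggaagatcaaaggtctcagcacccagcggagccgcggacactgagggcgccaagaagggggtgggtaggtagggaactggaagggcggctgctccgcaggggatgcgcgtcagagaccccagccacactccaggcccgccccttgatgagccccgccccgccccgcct
Lif: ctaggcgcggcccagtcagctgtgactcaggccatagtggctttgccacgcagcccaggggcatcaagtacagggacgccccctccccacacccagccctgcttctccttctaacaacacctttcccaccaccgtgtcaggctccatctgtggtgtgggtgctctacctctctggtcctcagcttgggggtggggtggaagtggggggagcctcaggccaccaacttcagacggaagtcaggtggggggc
Tnfaip6: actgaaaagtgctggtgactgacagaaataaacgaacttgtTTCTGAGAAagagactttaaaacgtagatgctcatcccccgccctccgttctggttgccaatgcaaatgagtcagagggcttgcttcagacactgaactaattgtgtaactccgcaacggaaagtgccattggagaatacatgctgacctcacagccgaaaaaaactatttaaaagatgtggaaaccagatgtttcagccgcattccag
A set of 3 motifs was searched on both strands in windows of 300 bases, 250 before and 50 after the start. The STAT motif TTCNNNGAA was in the Tnfaip6 window, 209 bases before the start, and in 8.3% of 32851 windows. The hypoxia response core ACGTG was in a Vegfa window that starts inside the gene, 211 bases before that start, and in 19.6% of windows. A kappa B motif was in no window of these genes and in 0.411% of all. A match or its lack says only which letters a window holds.

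Levels per length of transcript spread widely among the mediators. On average over the 15 libraries, Lgals1, which encodes the glycan-binding protein galectin-1, was highest at 189.5 CPM per kilobase of exon, followed by Vegfa at 109.0. Cxcl12 at 21.04, Il1rn at 11.03 and Hgf at 7.07 formed the middle of the order, with Nos2 at 3.15 below them. Lif at 1.73 and Stc1 at 1.57 CPM per kilobase were close to each other, and their ranges over libraries overlapped. Tnfaip6 at 0.774 and Ido1 at 0.480 were lowest, with only 10 to 77 and 12 to 45 counts per library, which limits what can be read from them. The neighbours Il1rn and Hgf overlapped too, at 4.53 to 24.4 against 4.99 to 8.00 CPM per kilobase.

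**Figure D1:**
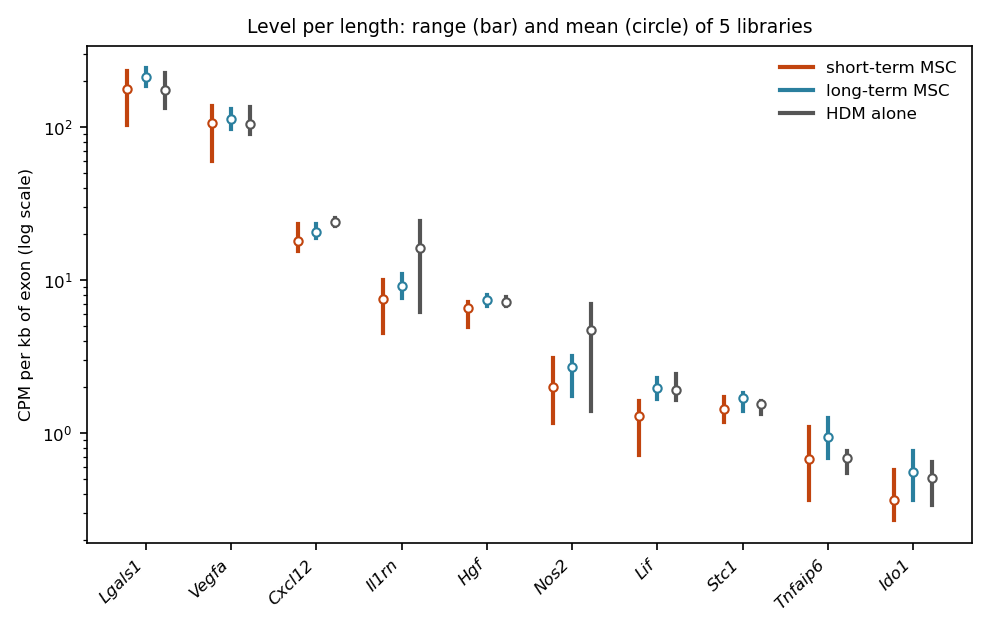
Level of each mediator in CPM per kilobase of exon (log scale), with bars from the lowest to the highest of 5 libraries and circles at the mean, for short-term, long-term and HDM groups. Lgals1 and Vegfa lie highest and Tnfaip6 and Ido1 lowest in all groups, and the long HDM bars of Il1rn and Nos2 show their spread among mice given HDM alone.

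Cells given on day 13 were followed on day 15 by no mediator above the HDM level past the test and by a single mediator below it. Cxcl12 was lower, at 147.6 ± 24.9 CPM in short-term and 197.9 ± 8.45 CPM in HDM lungs (SD, n = 5 each). This is 1 of 10 mediators called (edgeR quasi-likelihood test, Benjamini-Hochberg adjusted p under 0.05), where 4.79% of all tested genes were called in either direction, 2.89% lower and 1.9% higher. Il1rn, Nos2 and Lif had lower short-term means but did not pass in edgeR. DESeq2 called these 3 as well as Cxcl12, all lower (adjusted p of 0.00523, 0.00679, 0.0167 and 0.00161), where it called 11.8% of all genes given an adjusted p. In limma voom Cxcl12 and Lif were lower past the test (adjusted p of 0.00674 and 0.0236), where 12.3% of all tested genes were called. Il1rn, Nos2 and Lif were each called in 3 of 25 alternative fits. Of the 10, 7 had log2 fold changes below 0, with a median of -0.28 over all of them, against 0.03 over all tested genes, of which 45.8% were below 0. Without replicate 3 the median over the mediators was -0.19.

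**Figure D2:**
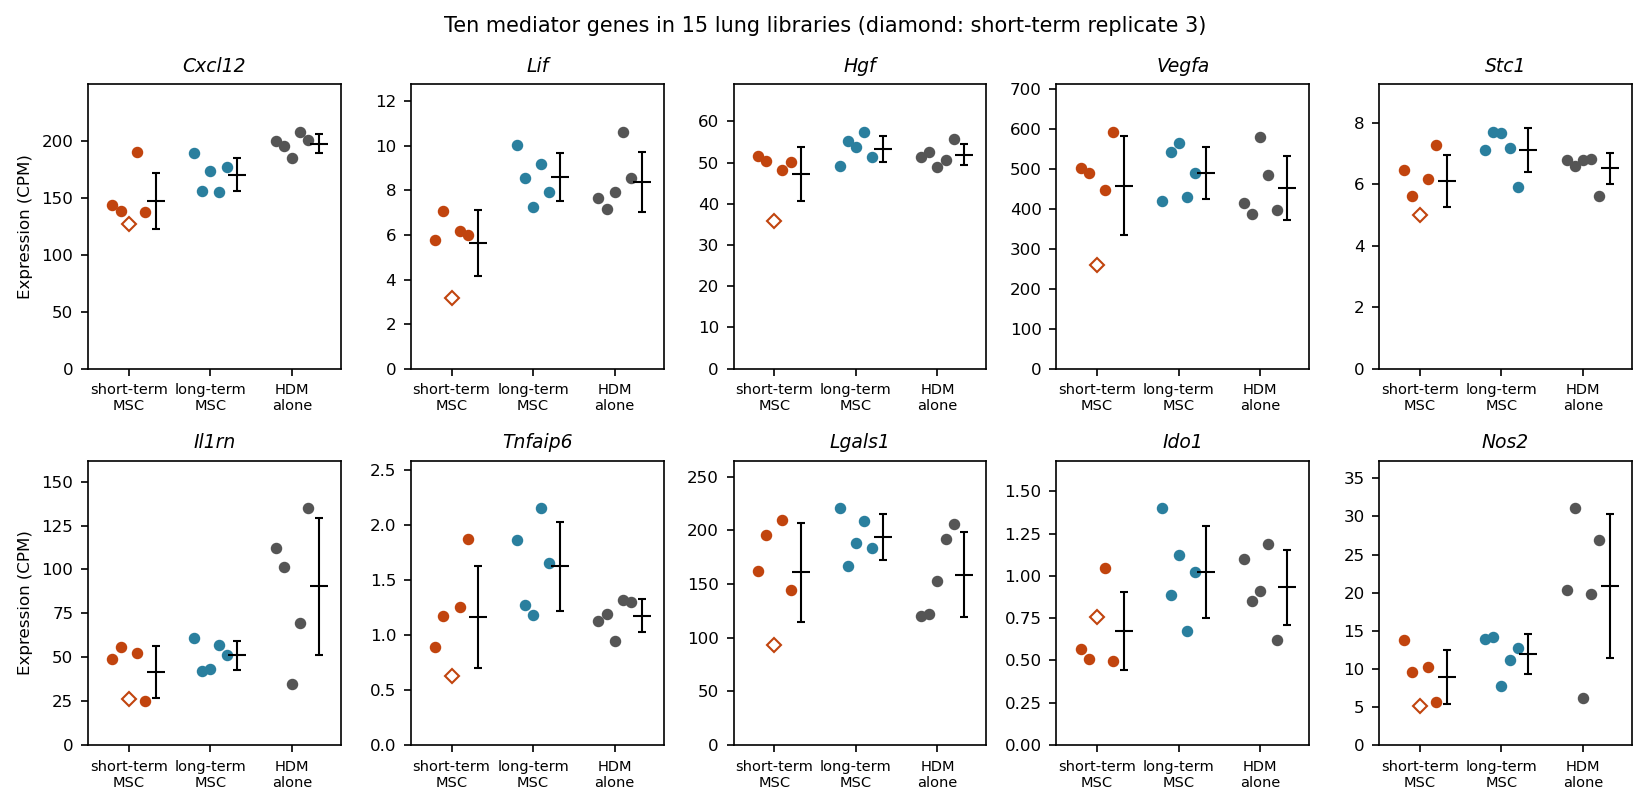
Expression in CPM of the 10 mediators in each of 15 libraries, by group (short-term MSC, long-term MSC, HDM alone), with points for libraries, a diamond for short-term replicate 3, and the mean ± SD of 5 libraries to the right of the points. Cxcl12 is lower in 4 of 5 short-term libraries than in any HDM library, while Il1rn and Nos2 vary most among the HDM libraries.

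Cxcl12 encodes stromal cell-derived factor 1, a chemokine that holds and guides leukocytes and progenitors through the receptor CXCR4. Its 5 short-term values were 144.1, 138.5, 126.9, 190.6 and 137.7 CPM, those of the long-term group 189.7, 155.9, 173.7, 155.5 and 177.6 CPM, and those of the HDM group 199.8, 195.5, 185.2, 208.2 and 200.8 CPM. In all, 4 short-term libraries lay below every HDM library, and only replicate 4 at 190.6 CPM reached the HDM range. The HDM lungs were close together, with a coefficient of variation of 4.27%, the smallest of the 10 mediators. On the log2 scale the short-term difference was -0.42 (SE 0.10, 95% interval -0.63 to -0.21, edgeR adjusted p = 0.0285). It was -0.36 with an adjusted p of 0.0336 in edgeR without short-term replicate 3, where Cxcl12 was again the 1 mediator called and 6.58% of all genes were. The call was kept in 15 of 25 alternative fits and lost in 10, among them those without HDM replicate 1, 2, 4 or 5 and those without short-term replicate 1, 2 or 5, with adjusted p of 0.05001 to 0.0802 in these leave-one-out fits.

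Long-term lungs lay between the groups for Cxcl12, at 170.5 ± 14.7 CPM (SD, n = 5), with a log2 difference to HDM of -0.22 (95% interval -0.43 to -0.0044, edgeR adjusted p = 0.347). The short-term to long-term difference was -0.21 (95% interval -0.42 to 0.0031, edgeR adjusted p = 0.623). In whole lung, fewer cells of a type and less RNA per cell cannot be told apart. The 8 fibroblast markers, none at 0, summed to 3019 to 6603 CPM in short-term and 5051 to 7401 CPM in HDM libraries, and without replicate 3 the short-term range was 5335 to 6603 CPM. The 7 endothelial markers, none at 0, summed to 1301 to 2518 CPM in short-term and 2510 to 2953 CPM in HDM libraries, and without replicate 3 the short-term range was 2427 to 2518 CPM. The 6 pericyte and smooth muscle markers, none at 0, summed to 639.1 to 1500 CPM in short-term and 924.1 to 1076 CPM in HDM libraries. Without replicate 3 the short-term range was 1207 to 1500 CPM, all above HDM. The long-term sums, at 1104 to 1355 CPM, were also all above HDM with no library left out. None of these 6 was called with all libraries. In short-term lungs 4 were higher past the edgeR test without replicate 3, where 3.23% of all genes were. Of the 7 endothelial markers 1 was lower past the test in short-term lungs with all libraries, where 2.89% of all genes were. Without replicate 3 it was 2 of the 7, where 3.36% of all genes were lower. None of the 8 fibroblast markers was called either way. The part of these cell types in the Cxcl12 difference was not tested.

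Lif encodes leukaemia inhibitory factor, a cytokine of the IL-6 family that signals through LIFR and gp130 to STAT3. It was 5.78, 7.06, 3.16, 6.18 and 6.02 CPM in short-term lungs, 10.0, 8.56, 7.26, 9.18 and 7.95 CPM in long-term lungs, and 7.65, 7.16, 7.93, 10.6 and 8.55 CPM in HDM lungs. Every short-term value was below every HDM value and below every long-term value, with the nearest at 7.06 CPM in short-term, against 7.26 CPM in long-term and 7.16 CPM in HDM libraries. Short-term lungs were so separated from HDM lungs for 3.73% of all tested genes and from long-term lungs for 1.04%. The log2 difference to HDM was -0.56 (SE 0.18, 95% interval -0.93 to -0.19, edgeR adjusted p = 0.0719), and without replicate 3 it was -0.40 (adjusted p = 0.0716), still without overlap, as for 5.36% of genes. Against long-term lungs it was -0.60 (95% interval -0.97 to -0.23), with an unadjusted p of 0.00354 and an adjusted p of 0.623 in edgeR. Neither difference passed the test, and Lif in long-term lungs differed from HDM by 0.04 on the log2 scale (95% interval -0.33 to 0.40).

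Il1rn encodes the interleukin-1 receptor antagonist, which occupies the IL-1 receptor without signalling. It was 49.2, 56.1, 26.0, 52.1 and 25.1 CPM in short-term lungs, 60.9, 42.4, 43.3, 56.9 and 51.6 CPM in long-term lungs, and 112.1, 101.2, 34.5, 69.5 and 134.8 CPM in HDM lungs. A total of 4 HDM libraries were above all 10 MSC libraries, while HDM replicate 3 at 34.5 CPM lay within them, so the groups overlap. The short-term difference was -1.11 on the log2 scale (SE 0.31, 95% interval -1.78 to -0.45, edgeR adjusted p = 0.0526), and -0.97 without short-term replicate 3 (adjusted p = 0.0979). Long-term lungs differed from HDM by -0.83 (95% interval -1.48 to -0.17, edgeR adjusted p = 0.253). Between short-term and long-term lungs the difference was -0.29, with a 95% interval of -0.94 to 0.37.

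Nos2 encodes inducible nitric oxide synthase, the enzyme by which activated mouse macrophages and mouse MSCs make nitric oxide from arginine. Its values were 13.8, 9.57, 5.18, 10.3 and 5.70 CPM in short-term lungs, 13.9, 14.2, 7.78, 11.1 and 12.7 CPM in long-term lungs, and 20.3, 31.1, 6.15, 19.8 and 26.9 CPM in HDM lungs. The pattern was that of Il1rn: 4 HDM libraries exceeded all MSC libraries, and HDM replicate 3 did not. The short-term difference was -1.22 (SE 0.35, 95% interval -1.96 to -0.48, edgeR adjusted p = 0.0568), and -1.07 without short-term replicate 3 (adjusted p = 0.0981). The long-term difference was -0.80 (95% interval -1.54 to -0.07, edgeR adjusted p = 0.317).

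Il1rn and Nos2 varied most among mice given HDM alone, with coefficients of variation of 43.3% and 45.4%. Without HDM replicate 3 both passed the test for short-term against HDM, Il1rn at -1.32 (adjusted p = 0.0131) and Nos2 at -1.45 (adjusted p = 0.0115) in edgeR, and without HDM replicates 1 and 2 they were at -0.92 (adjusted p = 0.158) and -0.96 (adjusted p = 0.168). HDM replicate 3 had the lowest HDM sums of the 7 monocyte and interstitial macrophage markers, 1471 CPM against 1593 to 2213 CPM in the other HDM libraries, and of the 7 alveolar macrophage markers, 3206 CPM against 3939 to 5816 CPM. Most of the first sum is Apoe, at 925.6 to 1395 CPM in HDM libraries, and most of the second is Chil3, at 2815 to 5333 CPM. HDM replicate 3 was also lowest of the HDM libraries for the 6 B cell markers (326.6 CPM against 379.8 to 460.98 CPM) and the 8 fibroblast markers (5051 CPM against 5812 to 7401 CPM). For the 7 endothelial markers it was highest, at 2953 CPM against 2510 to 2656 CPM. Over groups, the monocyte and interstitial macrophage markers summed to 878.7 to 1493 CPM in short-term, 1366 to 1788 CPM in long-term and 1471 to 2213 CPM in HDM libraries. The 7 neutrophil markers summed to 43.8 to 115.0 CPM in short-term, 94.96 to 128.4 CPM in long-term and 106.9 to 155.7 CPM in HDM libraries, with HDM replicate 3 in the middle at 126.8 CPM. In short-term lungs 3 of the 7 monocyte and interstitial macrophage markers and 2 of 6 tested neutrophil markers were lower past the edgeR test. These counts were the same without short-term replicate 3. Of all genes 2.89% were lower past the test with all libraries and 3.36% without replicate 3. No alveolar macrophage marker was called. None of these markers was at 0 in all libraries of a group, and their part in the Il1rn and Nos2 differences was not tested.

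**Figure D3:**
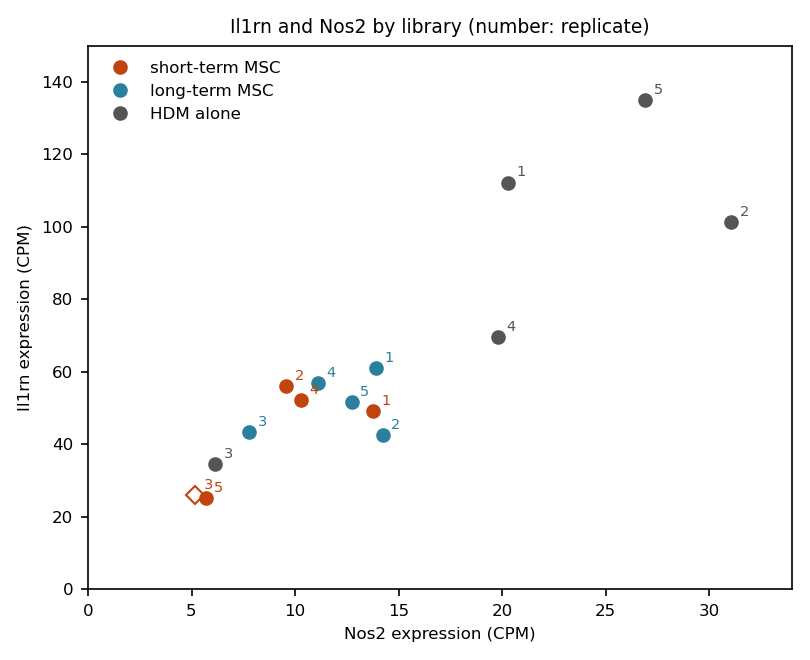
Il1rn against Nos2 expression, both in CPM, in the 15 libraries, coloured by group (short-term MSC, long-term MSC, HDM alone), with the replicate number beside each point and a diamond for short-term replicate 3. HDM replicates 1, 2, 4 and 5 lie apart at the upper right, and HDM replicate 3 lies among the MSC libraries at 6.15 CPM of Nos2 and 34.5 CPM of Il1rn.

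The growth factors Hgf and Vegfa, and Stc1, which encodes a secreted glycoprotein, showed no difference past the test. Hgf, a mitogen for epithelium that signals through the receptor MET, was 51.6, 50.3, 35.8, 48.2 and 50.2 CPM in short-term lungs, 49.3, 55.1, 53.7, 57.5 and 51.3 CPM in long-term lungs, and 51.4, 52.5, 49.1, 50.6 and 55.8 CPM in HDM lungs. Short-term replicate 3 at 35.8 CPM lay far below the rest, and short-term replicate 4 at 48.2 CPM was just below every HDM and long-term value. Without replicate 3 the log2 difference to HDM was -0.03 with a 95% interval of -0.17 to 0.10, the narrowest of the 10 mediators. With all libraries it was -0.13 (95% interval -0.33 to 0.06) and the long-term difference was 0.04 (-0.15 to 0.23). The Hgf gene overlaps the annotated genes Gm42975 and Gm43489 on its own strand, so part of its reads may be theirs.

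Vegfa, which drives growth and leakiness of vessels and is made by alveolar epithelium among other cells, was 502.9, 490.5, 258.9, 446.5 and 593.7 CPM in short-term lungs, 419.6, 544.3, 566.2, 430.3 and 489.5 CPM in long-term lungs, and 413.9, 388.1, 580.1, 485.8 and 397.3 CPM in HDM lungs. The groups overlap throughout, apart from the low short-term replicate 3, where the alveolar epithelial markers were also lowest at 8247 CPM. The short-term difference to HDM was 0.02 (95% interval -0.36 to 0.40), and 0.18 (-0.09 to 0.46) without that library. Stc1 encodes stanniocalcin-1, a secreted glycoprotein that acts on mitochondria and oxidative stress. It was 6.46, 5.61, 4.99, 6.18 and 7.26 CPM in short-term lungs, 7.12, 7.70, 7.66, 7.16 and 5.90 CPM in long-term lungs, and 6.79, 6.58, 6.77, 6.80 and 5.63 CPM in HDM lungs. Its log2 difference to HDM was -0.09 (95% interval -0.34 to 0.16) in short-term lungs, -0.01 (-0.26 to 0.23) there without replicate 3, and 0.13 (-0.12 to 0.37) in long-term lungs. An antisense gene, Gm41192, overlaps Stc1, and no source used here gives the strand setting of the counting.

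Tnfaip6, Lgals1 and Ido1 complete the mediators, and none passed the test. Tnfaip6 encodes TSG-6, a hyaluronan-binding protein that restrains neutrophil entry. It was 0.894, 1.17, 0.632, 1.26 and 1.88 CPM in short-term lungs, 1.87, 1.28, 1.19, 2.15 and 1.65 CPM in long-term lungs, and 1.13, 1.19, 0.943, 1.32 and 1.31 CPM in HDM lungs. Long-term values reached highest, with a log2 difference to HDM of 0.46 (95% interval -0.06 to 0.98, edgeR adjusted p = 0.418), the highest of the 10 mediators in that comparison. The short-term difference was 0.0017 (95% interval -0.52 to 0.52), and 0.15 (-0.34 to 0.64) without short-term replicate 3. Lgals1 was 162.0, 196.1, 93.1, 209.8 and 144.8 CPM in short-term lungs, 220.5, 167.2, 188.3, 209.0 and 183.1 CPM in long-term lungs, and 120.2, 122.0, 152.8, 192.3 and 206.0 CPM in HDM lungs, and the groups overlap. Its log2 difference to HDM was 0.02 (-0.39 to 0.44) in short-term lungs, 0.18 (-0.15 to 0.52) there without replicate 3, and 0.29 (-0.13 to 0.70) in long-term lungs. Ido1, the enzyme that opens tryptophan breakdown to kynurenine, was 0.566, 0.507, 0.758, 1.04 and 0.495 CPM in short-term lungs, 1.40, 0.889, 1.12, 0.672 and 1.03 CPM in long-term lungs, and 1.10, 0.853, 0.908, 1.19 and 0.622 CPM in HDM lungs. The short-term difference of Ido1 was -0.47 (95% interval -1.04 to 0.10, edgeR adjusted p = 0.302), and -0.49 (-1.08 to 0.11) without replicate 3.

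Cells given on day 6 were followed on day 15 by no mediator past the test in either direction, by edgeR, DESeq2 or limma voom, where edgeR called 0.0971% of all tested genes, DESeq2 4.38% of those given an adjusted p and limma voom 2.53%. At an unadjusted p under 0.05, 3 of 10 mediators differed from HDM (Il1rn, Nos2 and Cxcl12, all with lower long-term means), and 13.9% of all tested genes did. Without short-term replicate 3 these were 4 of 10, the fourth being Tnfaip6 with a higher long-term mean (log2 difference 0.47, 95% interval 0.011 to 0.92), and 20.2% of all genes. The median log2 difference over the mediators was 0.08, against 0.01 over all tested genes, and 3 of 10 were below 0, as were 47.8% of all genes. Between short-term and long-term lungs no gene at all was called by edgeR, at 0.0% of those tested, against 2 by DESeq2 and 1 by limma voom. All 10 mediators had lower short-term means in that comparison, with a median of -0.28, and 9 of 10 with a median of -0.15 without short-term replicate 3. Over all tested genes the median was 0.0071 and 48.6% were below 0. At an unadjusted p under 0.05 these were Lif and Ido1, 2 of 10 mediators, against 7.74% of all tested genes. The short-term and long-term comparisons with HDM share the same 5 HDM libraries, and their values are therefore set side by side only.

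**Figure D4:**
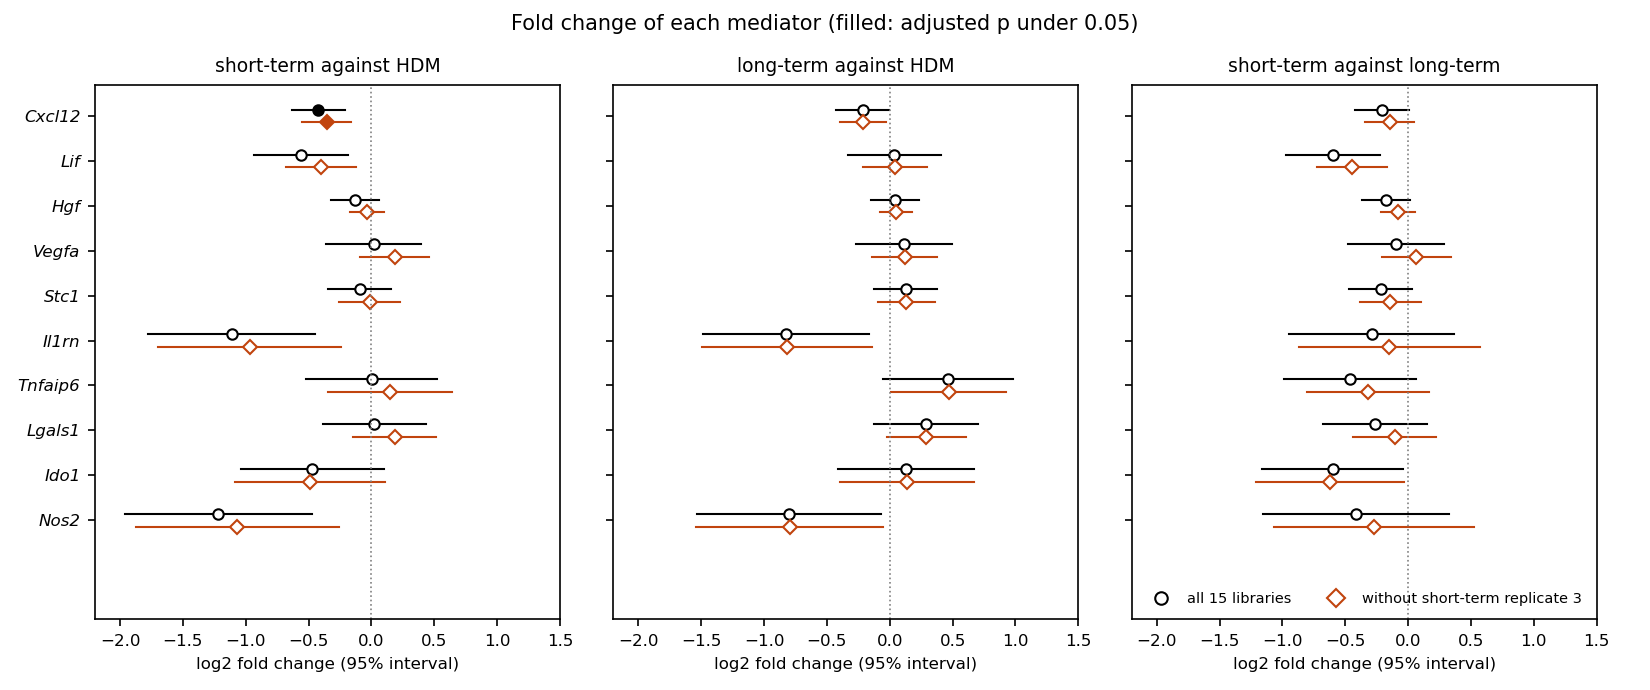
Log2 fold change of each mediator with its 95% interval in 3 panels, for short-term against HDM, for long-term against HDM and for short-term against long-term, with circles for all 15 libraries and diamonds without short-term replicate 3, filled where the adjusted p is under 0.05. Only Cxcl12 in the first comparison is filled, at -0.42 with and -0.36 without that library.

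Partners of the mediators, in 13 lists of ligands, receptors, activators, enzymes and targets, gave 131 tested genes. In short-term lungs 7 of these were lower and 1 was higher past the test, against 4.79% called among all tested genes, and DESeq2 and limma voom called 22 and 14 of them, where they called 11.8% and 12.3% of all genes. The edgeR count over both directions and the limma voom count are thus near their backgrounds. In long-term lungs edgeR and DESeq2 called none and limma voom called 1, Tgfb1 (lower), named after its values were seen, and 19 of the 131 were at an unadjusted p under 0.05 in edgeR, near the 13.9% of all genes that were. Mmp9, a gelatinase that can cut CXCL12, was lower at 13.3 ± 1.93 CPM in short-term and 20.5 ± 2.73 CPM in HDM lungs (SD, n = 5 each). Its log2 difference was -0.62 (edgeR adjusted p = 0.0179), and -0.57 without short-term replicate 3 (adjusted p = 0.0197). Every short-term library lay below every HDM library, as for 3.73% of all tested genes. The call was kept in 22 of 25 alternative fits. It was lost in the fit of only these 10 libraries, that without short-term replicate 5 (adjusted p = 0.0579) and that without HDM replicates 1 and 2. Mmp9 was the only called gene of the 6 in the list of CXCL12 receptors and breakdown, of which 5 were below 0 with a median of -0.38. The receptors themselves, named here for their role, did not pass: Cxcr4 was at -0.35 (adjusted p = 0.156) and the scavenger receptor Ackr3 at -0.47 (adjusted p = 0.0555) in edgeR. Without short-term replicate 3 Cxcr4 was lower past the test, at -0.44 (edgeR adjusted p = 0.0473), while Ackr3 was at -0.39 (adjusted p = 0.0790). Of the 6 B cell markers, 5 were lower past the edgeR test in short-term lungs (median -0.96), where 2.89% of all genes were, and all 6 without replicate 3 (median -0.88), where 3.36% were. They were not lower in short-term lungs alone. In long-term lungs all 6 were below 0 (median -0.64). None was called there with all libraries, but 5 were at an unadjusted p under 0.05 in edgeR, against 13.9% of all genes. Without short-term replicate 3, 4 of the 6 were lower past the edgeR test in long-term lungs. All 6 were then at an unadjusted p under 0.05, against 20.2% of all genes. Sums of the B cell markers were 139.3 to 283.1 CPM in short-term, 223.8 to 286.0 CPM in long-term and 326.6 to 460.98 CPM in HDM libraries. None was at 0, and their part in the differences of Mmp9, Cxcr4 and Ackr3 was not tested.

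Among 24 other genes of MSC mediators, 3 were lower past the edgeR test in short-term lungs and none higher, where 2.89% of all tested genes were lower and 1.9% higher. Tgfb2, a ligand of the TGF-beta family, was 34.8, 35.4, 27.9, 36.0 and 33.4 CPM in short-term lungs, against 51.4, 54.9, 41.3, 47.2 and 39.5 CPM in HDM lungs, with no overlap, as for 3.73% of all tested genes. Its log2 difference was -0.48 (edgeR adjusted p = 0.0184), and the call was kept in 20 of 25 alternative fits. Those that lost it include the fits without HDM replicate 2 or without short-term replicate 5. The adjusted p was at most 0.0542 with 1 library left out. Tgfb3, of the same family, was lower by -0.56 (edgeR adjusted p = 0.0265), with the ranges 36.9 to 60.1 CPM in short-term and 70.3 to 92.1 CPM in HDM lungs. Cd274, which encodes the checkpoint ligand PD-L1 and also stands among 9 interferon-gamma targets, was lower by -0.34 (edgeR adjusted p = 0.0413), and it was the only called gene of those targets. The Tgfb3 call was kept in 18 of 25 alternative fits, and the losses include those without HDM replicate 2, 4 or 5 or short-term replicate 5. The Cd274 call was lost in 17 of 25. Without short-term replicate 3 all 3 were lower past the test, Tgfb2 at -0.41, Tgfb3 at -0.44 and Cd274 at -0.37 (edgeR adjusted p of 0.0182, 0.0195 and 0.0195).

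The IL-1 receptor Il1r1, on which the Il1rn product acts, was lower at 64.7 ± 9.29 CPM in short-term and 93.9 ± 20.2 CPM in HDM lungs (SD, n = 5 each). Its log2 difference was -0.54 (edgeR adjusted p = 0.0436), and -0.46 with no call (adjusted p = 0.0594) without short-term replicate 3. The agonists did not pass, with Il1a at -0.52 (edgeR adjusted p = 0.0648) and Il1b at -0.26 (adjusted p = 0.607), and without replicate 3 they were at -0.44 and -0.08. Cd44, a hyaluronan receptor and the only called gene of 16 tested TSG-6 and hyaluronan partners, was lower by -0.44 (edgeR adjusted p = 0.0459), and by -0.33 without replicate 3 (adjusted p = 0.0433). The Il1r1 and Cd44 calls were kept in 6 and 8 of 25 alternative fits. Has1, of the hyaluronan list and named after its values were seen, had the highest log2 difference to HDM of the 131 partners in both comparisons. It did not pass, at 1.08 in short-term lungs (edgeR adjusted p = 0.0986) and 0.86 in long-term lungs (adjusted p = 0.325). Without short-term replicate 3 the short-term difference was 1.18 (adjusted p = 0.0760). Levels of Has1 were low, and the short-term and HDM values overlapped.

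Of 4 partners of the stanniocalcins, Pappa was higher and Ucp2 was lower in short-term lungs. Pappa encodes a metalloproteinase that stanniocalcins inhibit. It was 7.38 ± 0.761 CPM in short-term and 5.49 ± 0.614 CPM in HDM lungs (SD, n = 5 each), with a log2 difference of 0.42 (edgeR adjusted p = 0.0429). Its values did not overlap, and the share of all genes so separated above HDM is not given here. Ucp2, a mitochondrial carrier, was lower by -0.38 (edgeR adjusted p = 0.0340), at 236.0 to 291.5 CPM in short-term and 287.9 to 357.2 CPM in HDM lungs. Each of these calls was kept in 11 of 25 alternative fits, among them that without short-term replicate 3, with Pappa at 0.38 (edgeR adjusted p = 0.0471) and Ucp2 at -0.32 (adjusted p = 0.0408).

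The other 7 lists held no called gene, and their genes with the smallest p are given as values. Met, the HGF receptor, was at -0.34 (edgeR adjusted p = 0.0664) for short-term against HDM. It did not overlap, at 89.4 to 146.6 CPM in short-term and 150.8 to 162.1 CPM in HDM lungs. Short-term lungs were so separated below HDM for 3.73% of all tested genes. Without short-term replicate 3, which held the lowest value, Met was at -0.22 (edgeR adjusted p = 0.0567). Long-term lungs also lay below the HDM range for Met, at 128.6 to 150.1 CPM, with a log2 difference of -0.19 (edgeR adjusted p = 0.420). The share of all genes so separated in long-term lungs is not given here. Il6st, the shared receptor chain gp130 used by LIF, was at -0.30 (edgeR adjusted p = 0.0776), while its partner Lifr was at 0.10 (adjusted p = 0.477). Lgals9, another galectin, was at -0.34 (edgeR adjusted p = 0.0712). Kyat3, of the kynurenine pathway, was at 0.45 (edgeR adjusted p = 0.0813), and at 0.30 (adjusted p = 0.102) without short-term replicate 3, where it was 9.54 CPM against 4.79 to 6.51 CPM in the other short-term libraries. Slc7a2, an arginine transporter, was at -0.39 (edgeR adjusted p = 0.189), and at -0.26 (adjusted p = 0.314) without that library. Car9, a hypoxia target, was at -0.60 (edgeR adjusted p = 0.0589), with 11 other hypoxia targets not called either. Without replicate 3 Car9 was at -0.53, Lgals9 at -0.33, Il6st at -0.22 and Lifr at 0.12. The VEGF ligand Pgf was at -0.42 for short-term against long-term (unadjusted p = 0.0371, edgeR adjusted p = 0.623), and the VEGF receptors Kdr and Flt1 were at -0.12 and -0.09 against HDM. Without short-term replicate 3 Pgf was at -0.30, and Kdr and Flt1 turned to 0.06 and 0.05. Arg1, the arginase that competes with Nos2 for arginine, was at -1.22 (edgeR adjusted p = 0.263), with 47.6 ± 27.1 CPM in short-term and 111.0 ± 81.5 CPM in HDM lungs, and at -1.01 without replicate 3.

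**Figure D5:**
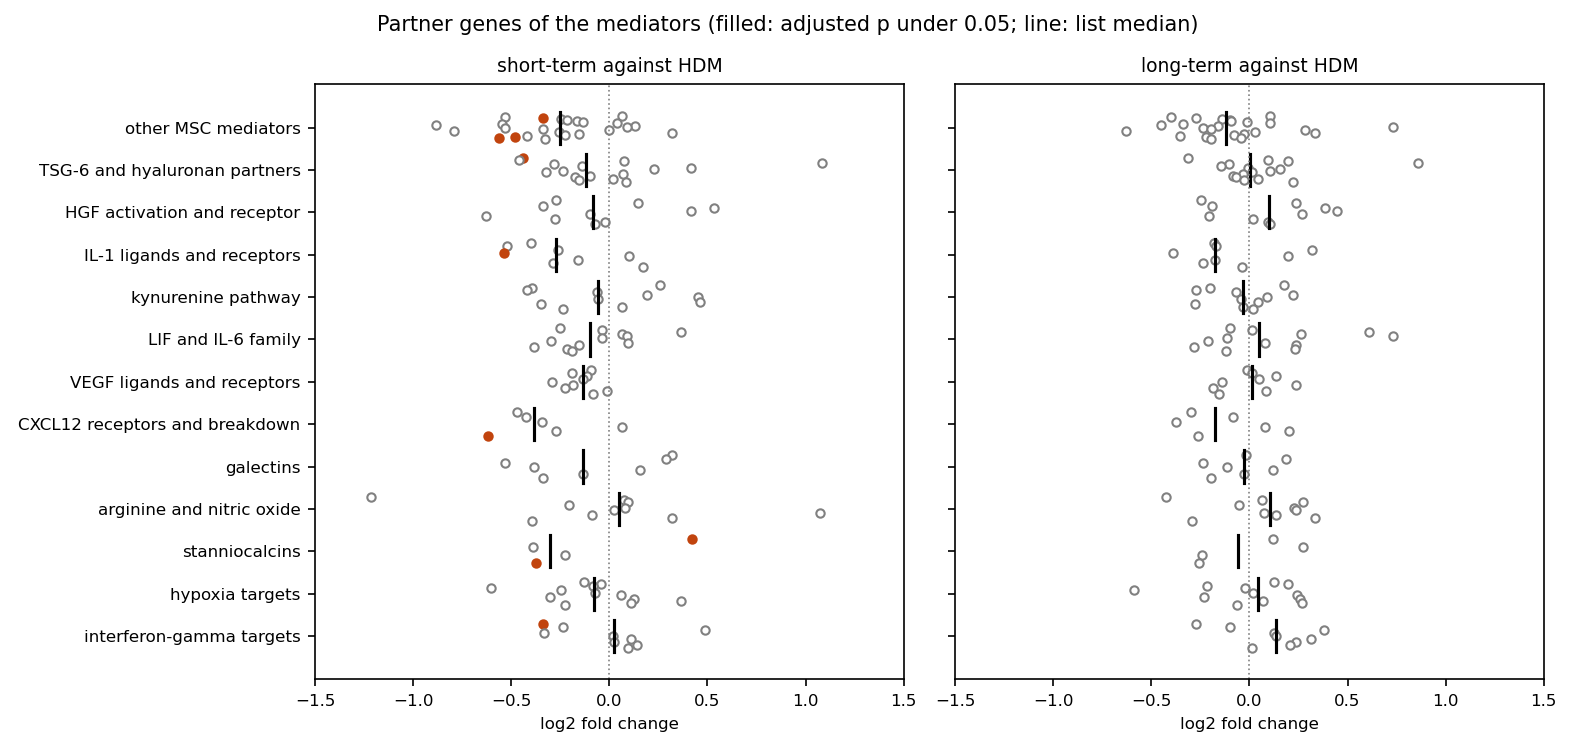
Log2 fold change of the partner genes in 13 lists for short-term (left) and long-term (right) lungs against HDM, with a dot for each gene, filled where the adjusted p is under 0.05, and a line at each list's median. Filled dots appear only in the first comparison, where the median of the CXCL12 list is -0.38.

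Across 14 libraries, without short-term replicate 3, the genes with the most alike order of libraries were found among 13676 protein-coding genes, by the mean difference in rank. Genes in one lung share library, depth and cell make-up, so these are descriptions. Closest to Il1rn were Tmem26 at 0.429 ranks, Irak4 at 0.714 and Adora1 at 0.857, and closest to Nos2 were Dip2b at 0.714, Cmah at 1 and Fndc3b at 1. Nearest to Cxcl12 were Slc10a3 at 0.857, Lcp1 at 1 and Mmp8 at 1, and nearest to Lif were Cyp4f39 at 1.29, Il4ra at 1.43 and Scx at 1.57. Vegfa went with Rusc2 at 0.429, Mtcl1 at 0.571 and Mapt at 0.714, and Lgals1 with Pgk1 at 0.857, Vcp at 0.857 and Arfip1 at 1. Stc1 was nearest to Eogt at 1.43, Tnfaip6 to Mrps6 at 1.86 and Hgf to Naip1 at 2, and Ido1 was too low to be compared. Among the mediators themselves Il1rn and Nos2 were the closest pair, at 1.86 ranks, and Il1rn and Vegfa the farthest apart, at 6.86.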

How the data were processed

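Stranded libraries were made from total RNA of RNAlater-kept lobes, per the labels' protocols. The authors deposited raw counts per gene, aligned with STAR 2.5.3a to GRCm38 per the submitters' processing notes, and no source used here names the counter, the strand setting or the annotation. Gene names, coordinates and exon lengths were matched by gene ID to an annotation of GRCm38. The samples' replicate numbers follow the order of deposit and pair nothing, and nothing says that they came from separate cages or days, so p-values measure the spread between these mice.

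Libraries were scaled by TMM, genes were kept with filterByExpr, and the 3 comparisons were contrasts of a single edgeR 4.0.16 quasi-likelihood fit of all 15 libraries in R 4.3.3, with robust shrinkage. P-values were two-sided and adjusted over all 19562 tested genes by the Benjamini-Hochberg method, and 0.05 was the threshold. CPM uses TMM-scaled totals, and standard errors and 95% intervals come from the same fit. The test was tried on simulated data. Other settings tried were scaling by RLE or upper quartile, no filter, a mean of at least 1 CPM, DESeq2 1.42.0, limma 3.58.1 voom with quality weights, no robust shrinkage, only the 10 libraries compared, and libraries left out. The fit without HDM replicates 1 and 2 and short-term replicate 3 was added after seeing the data. The mediators and partner lists were chosen with earlier results of these data known. Named partners are all called members of a list or, where none was called, the 1 with the smallest p. Receptors, ligands and Arg1 were added for their role, and Has1 for its value, after the values were seen. The alike genes are the 3 nearest in rank with a mean of at least 1 CPM. Saline-treated mice were not analysed here. Figures were drawn with matplotlib 3.10.9.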

Additional observations from a re-analysis of the deposited data

Results flagged for a closer look

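The libraries of each group were searched for a value far from the other 4, by Dixon's gap test at a critical value of 0.71, for 25 genes (75 groups). Chance flags about 1 in 20 groups (5%), and 5 groups held such a value. Hgf was 35.8 CPM in short-term replicate 3, against 48.2 to 51.6 CPM in the other short-term libraries. Tgfb3 was 36.9 CPM in the same library, against 55.7 to 60.1 CPM. Cxcl12 was 190.6 CPM in short-term replicate 4, against 126.9 to 144.1 CPM in the other short-term libraries, and without that library its log2 difference to HDM was -0.53 (edgeR adjusted p = 0.00996). Stc1 was 5.63 CPM in HDM replicate 5, against 6.58 to 6.80 CPM in the other HDM libraries. Ucp2 was 287.9 CPM in HDM replicate 3, against 346.7 to 357.2 CPM.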

How the results depend on the processing

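No paired analysis was possible because replicate numbers were given in the order of deposit. Over the alternatives, 699 of 746 values kept their side of the threshold and direction. For short-term against HDM, 937 genes and 1 mediator were called, against 2146 and 4 with DESeq2, 2413 and 2 with limma voom, 208 and 0 with no filter, 0 and 0 with only the 10 libraries compared, 183 and 0 without HDM replicates 1 and 2, and 2279 and 2 without those and short-term replicate 3. Without robust shrinkage 2 mediators and 952 genes were called. Leaving out a library gave 160 to 1294 genes and 0 to 3 mediators. For long-term against HDM, 19 genes became 684 with DESeq2, 494 with limma voom, 36 with only the libraries compared, 0 with upper-quartile scaling, 2 with no filter, 2 without HDM replicates 1 and 2, 492 without those and short-term replicate 3, and 0 to 433 without a library. For short-term against long-term, DESeq2 called 2 genes and limma voom 1. The cause of these changes was not tested, except that fewer libraries enter some fits. With no filter the median over all genes moved to 0.45 for short-term against HDM and 0.44 for short-term against long-term.

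Signs changed only for log2 differences near 0. Against HDM in short-term lungs, Tnfaip6 was -0.0020 with RLE scaling, -0.010 with no filter and -0.063 with limma voom, and Vegfa was -0.075 and Lgals1 -0.18 without HDM replicates 1 and 2, with Lgals1 at -0.050 when short-term replicate 3 was left out as well. Without a library, Tnfaip6 ranged from -0.22 to 0.15, Vegfa from -0.080 to 0.18 and Lgals1 from -0.090 to 0.18. Against HDM in long-term lungs, Lif was -0.070 with limma voom, -0.070 without HDM replicates 1 and 2 and -0.076 without those and short-term replicate 3. Without a library, Lif ranged from -0.025 to 0.14 and Ido1 from -0.0057 to 0.25. Vegfa for short-term against long-term was 0.044 with limma voom and 0.050 without the 3 libraries, and -0.20 to 0.065 without a library. Depth limits Tnfaip6 and Ido1 most, with at most 77 and 45 counts in a library.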
